A study of Mus musculus with 4 samples.

Results

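The 39 imprinted genes described here were chosen by name, as genes known to be expressed from 1 parental chromosome, and every ATAC-seq peak overlapping a gene's span or the 10 kb either side of it was taken as theirs. They make up 39 of 49943 genes in the gene table used, lie in 19 clusters on autosomes and hold 282 of the 113056 merged regions of accessible chromatin in the series. A merged region is a stretch where peaks of the 4 deposited lists overlap. The libraries came from endothelial cells, the lining cells of blood and lymph vessels, sorted from mouse lung by flow cytometry. There were 2 libraries of Dnmt3a KO mice (KO1 and KO2) and 2 of WT mice (WT1 and WT2). Dnmt3a encodes a de novo DNA methyltransferase. The labels give no strain, age or sex, and which cells and which stage carried the deletion is not given in the sources used here.

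Genomic imprinting is set in the germ line, where DNA methylation is laid down at control regions of the egg or the sperm and is then kept on that parental copy in the cells of the body. Dnmt3a is the enzyme known to set most of these marks in germ cells, while Dnmt1, together with Zfp57 and Trim28, is known to keep them afterwards. At most control regions the egg's copy is methylated and the unmethylated copy from the father acts as a promoter, as at Kcnq1ot1, Peg3, Mest, Snrpn, Airn and Plagl1. At H19, Rasgrf1 and in the interval upstream of Meg3 the sperm's copy is methylated. ATAC-seq marks DNA that a transposase can reach, and the lists do not separate the parental copies.

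The 7 promoters below belong to the starts at which the values further on turn. The first 6 are starts at germline control regions where at least 1 list held a peak, and the last, Meg3, was added after its values were seen. Each runs 5′ to 3′ along the gene's strand from 250 bases before to 50 bases after the start, is taken from RefSeq on GRCm38.p6 (the mm10 assembly), and has its CpG dinucleotides, where methylation sits, in capitals.
Kcnq1ot1, chr7:143296498-143296797, minus strand: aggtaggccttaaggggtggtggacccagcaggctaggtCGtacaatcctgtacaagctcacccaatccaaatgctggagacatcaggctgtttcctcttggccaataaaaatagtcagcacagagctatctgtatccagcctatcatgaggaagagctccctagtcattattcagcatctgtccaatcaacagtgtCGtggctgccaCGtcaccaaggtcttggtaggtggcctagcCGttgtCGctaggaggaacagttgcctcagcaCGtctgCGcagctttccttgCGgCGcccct
Peg3, chr7:6730370-6730669, minus strand: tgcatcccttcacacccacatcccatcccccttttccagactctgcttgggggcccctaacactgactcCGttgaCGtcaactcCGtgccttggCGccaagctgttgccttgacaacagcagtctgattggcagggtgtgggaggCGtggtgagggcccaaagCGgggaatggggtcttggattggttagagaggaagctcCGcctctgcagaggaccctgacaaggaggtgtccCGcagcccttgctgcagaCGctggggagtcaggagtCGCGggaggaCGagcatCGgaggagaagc
Mest, chr6:30737800-30738099, plus strand: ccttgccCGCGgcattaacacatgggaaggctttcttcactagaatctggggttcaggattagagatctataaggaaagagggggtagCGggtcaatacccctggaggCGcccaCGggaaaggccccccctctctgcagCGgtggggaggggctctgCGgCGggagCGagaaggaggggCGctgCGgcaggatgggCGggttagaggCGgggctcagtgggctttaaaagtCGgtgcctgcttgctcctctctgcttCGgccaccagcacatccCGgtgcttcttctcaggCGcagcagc
Snrpn, chr7:60005150-60005449, minus strand: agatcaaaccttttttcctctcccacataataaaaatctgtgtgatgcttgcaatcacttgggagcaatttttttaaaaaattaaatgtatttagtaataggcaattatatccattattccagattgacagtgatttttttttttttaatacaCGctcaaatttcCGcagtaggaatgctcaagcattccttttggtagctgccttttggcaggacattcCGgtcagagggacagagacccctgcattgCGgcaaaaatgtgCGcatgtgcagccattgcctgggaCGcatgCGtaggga
Airn, chr17:12741061-12741360, plus strand: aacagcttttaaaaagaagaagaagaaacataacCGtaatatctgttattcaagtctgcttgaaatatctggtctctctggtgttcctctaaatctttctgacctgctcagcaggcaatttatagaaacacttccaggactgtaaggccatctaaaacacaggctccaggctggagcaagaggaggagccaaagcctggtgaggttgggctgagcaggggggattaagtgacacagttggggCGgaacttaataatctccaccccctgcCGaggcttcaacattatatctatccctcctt
Plagl1, chr10:13090582-13090881, plus strand: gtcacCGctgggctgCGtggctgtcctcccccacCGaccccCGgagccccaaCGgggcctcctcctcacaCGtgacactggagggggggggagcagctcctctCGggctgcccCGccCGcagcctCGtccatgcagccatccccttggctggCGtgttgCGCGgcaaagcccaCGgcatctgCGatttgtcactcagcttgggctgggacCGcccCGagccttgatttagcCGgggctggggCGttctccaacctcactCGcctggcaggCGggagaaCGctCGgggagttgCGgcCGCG
Meg3, chr12:109540746-109541045, plus strand: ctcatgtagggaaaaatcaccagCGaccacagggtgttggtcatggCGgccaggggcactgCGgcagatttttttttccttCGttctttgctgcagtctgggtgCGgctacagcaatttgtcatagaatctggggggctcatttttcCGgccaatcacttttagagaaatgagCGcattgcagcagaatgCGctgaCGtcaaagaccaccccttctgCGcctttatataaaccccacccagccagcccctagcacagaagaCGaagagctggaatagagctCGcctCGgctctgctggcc

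These 300 bases held 26 CpGs at Plagl1, 17 at Mest, 13 at Peg3 and at Meg3, 9 at Kcnq1ot1, 7 at Snrpn and 3 at Airn. RefSeq's promoter table gave 46 starts for 29 of the imprinted genes, with a median of 15 CpGs against 7 over all 32851 promoters of the table. The hexamer TGCCGC, which the imprint-keeping factor Zfp57 binds when it is methylated, was found on either strand in 12 of the 46 promoters (26.1%) and in 11.6% of all promoters. The hexamer itself holds a CpG, and the shares were not compared at equal CpG number. The 12 count overlapping Mest promoters separately and take in starts not classed at germline control regions, such as those of Copg2 and Zim1. Mest held 2 matches in the window shown, and Plagl1, Snrpn and Meg3 held 1 each. The table had no entry for H19, Kcnq1, Cdkn1c, Peg10, Sgce, Rtl1, Trappc9, Kcnk9, Impact and Nespas (listed there as Gnasas1).

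Over the whole series the lists held 85091 and 100879 peaks in KO1 and KO2, and 101442 and 97627 in WT1 and WT2, with median widths of 467, 407, 431 and 443 bp. The lists give positions and widths with no read counts, so read depth is unknown, a missing peak is not evidence of inaccessible DNA, and they carry no readout of the deleted Dnmt3a sequence. Every library had peaks within 1000 bp of an end of all 10 endothelial marker genes, and likewise of all 5 mural cell markers, 4 or 5 of 6 epithelial markers, 3 or 4 of 5 fibroblast markers and 1 or 2 of 6 leukocyte markers, and the part of other cells in the values below was not tested. KO2 stood apart at sex-linked genes, with no peak at any of 4 Y-linked genes and 3 peaks at Xist, where the other libraries had peaks at 3 or 4 of the Y-linked genes and 1 at Xist. No imprinted gene of the set lies on a sex chromosome, but the part of sex in the values below was not tested. Since the library that stood apart is a KO library, sex could not be fully told apart from genotype. Nothing in the labels says that the libraries of a genotype came from separate mice, so the p-values measure only the spread between these libraries.

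The imprinted genes took nearly the same share of each list. They held 210 peaks in KO1, 245 in KO2, 250 in WT1 and 236 in WT2, which is 0.247%, 0.243%, 0.246% and 0.242% of the lists. The groups overlapped, at 227.5 ± 24.7 peaks in KO and 243 ± 9.90 in WT (SD, n = 2 each, two-sided exact permutation test over libraries, p = 0.667, where 2 against 2 cannot go below 0.333). Per 100000 peaks of a list the values were 245 ± 2.78 in KO and 244 ± 3.33 in WT, a difference in the other direction with the same exact permutation p = 0.667. Listed base pairs at the imprinted genes came to 113236 in KO1, 116755 in KO2, 127581 in WT1 and 121690 in WT2. These did not overlap and differed by the smallest p the design allows (exact permutation p = 0.333), and the whole lists also covered less in KO, at 46.6 and 47.8 Mb against 51.1 and 50.5 Mb. Without KO1, the shortest list, the difference in peak number was 2 in the other direction.

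Most imprinted regions were called in every library. Of the 282 regions, 185 (65.6%) were in all 4 lists, beside 66.7% over the series. Regions called by KO1 and KO2 but in neither WT library, the KO pattern below, numbered 4 (1.42%), beside 1.12% over the series. Regions called by WT1 and WT2 but in neither KO library, the WT pattern, numbered 6 (2.13%), beside 3.04%. Both shares lie near the background of the series, so the counts are no result about imprinted genes. A further 48 regions (17.0%) were in 1 list, of which 22 were in WT1 alone (7.80%, beside 4.34% over the series). With KO2 left out, 11 of 272 regions were in the KO1 list and neither WT list (4.04%, beside 3.21%) and 22 were in both WT lists and not in KO1 (8.09%, beside 11.1%). With WT2 left out the WT share lay on the other side of the series, at 28 of 273 regions in WT1 and neither KO list (10.3%, beside 7.65%).

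The 4 KO-pattern regions lay at Grb10, Usp29 and Kcnq1. Grb10 encodes an adaptor that restrains growth-factor signalling, and its region at chr11:11963678-11963970 was 220 bp wide in KO1 and 268 bp in KO2. At Usp29, a ubiquitin-specific protease gene that shares a control region with Peg3, the region at chr7:6750985-6751367 measured 235 and 207 bp. Kcnq1, a potassium channel gene, held the other pair. At chr7:143124286-143124634 the widths were 206 and 349 bp, and at chr7:143302727-143303057, which lies 6180 bp beyond the start of the antisense transcript Kcnq1ot1, they were 201 and 331 bp. All 4 lay inside gene spans and none within 1000 bp of a start.

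The 6 WT-pattern regions lay at Meg3, Grb10, Trappc9, Igf2r and Peg10. Only the region at Meg3, a long noncoding RNA expressed from the mother's copy, held a gene start, with 252 bp in WT1 and 216 bp in WT2 at chr12:109540778-109541051. The Grb10 region at chr11:12036516-12036878 ended 542 bp from a Grb10 start and measured 363 and 290 bp. Trappc9, a gene for a vesicle-tethering complex subunit, held a region at chr15:72664639-72664882 (207 and 213 bp) and another at chr15:72981621-72982045 (399 and 398 bp). Outside the gene spans lay a region beside Igf2r at chr17:12675093-12675470 (333 and 253 bp) and one beside Peg10 at chr6:4762339-4762639 (301 and 201 bp). Every peak in these 10 regions was narrower than the median of its list, so none of the 10 is left when only peaks at or above that median are kept; 2 KO-pattern and 4 WT-pattern regions then arose elsewhere among the imprinted genes. With the lists brought to equal length by width 5 of the 10 kept their pattern, the region at the Meg3 start not among them. The WT-pattern regions at Grb10 and at chr15:72664639 had a KO peak within 500 bp.

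By cluster, peak numbers of the KO and WT libraries overlapped in 15 of the 19, were higher in both WT libraries in 4 and were higher in both KO libraries in none. The same count was not made for other windows of the series. By listed base pairs, a different measure, 33.8% of all genes were higher in both WT libraries and 6.46% in both KO libraries, so the series leans the same way. The Kcnq1 and Trappc9-Kcnk9 clusters had the most regions, 54 each. Kcnq1, with Kcnq1ot1 and the growth restrainers Cdkn1c and Phlda2, stood at 45 peaks in KO1, 54 in KO2, 45 in WT1 and 46 in WT2. Trappc9 with Kcnk9, a potassium channel gene, stood at 40 and 48 peaks in KO against 51 and 49 in WT. Commd1, the host gene of Zrsr1, had 8 and 8 against 13 and 10. The small clusters of Slc38a4, an amino acid transporter gene, and of Dlk1 to Dio3 held 2 and 2 against 3 and 3, and 3 and 2 against 6 and 4. WT1 had the most peaks in 3 of these 4 and tied with WT2 in the Slc38a4 cluster. H13, a signal peptide peptidase gene, had 9 of its 10 regions in all 4 lists and Nnat, a small membrane protein gene of the nervous system, 2 of 2, while Rasgrf1, a Ras exchange factor gene, had 2 regions of 1 list each and none shared.

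**Figure D1:**
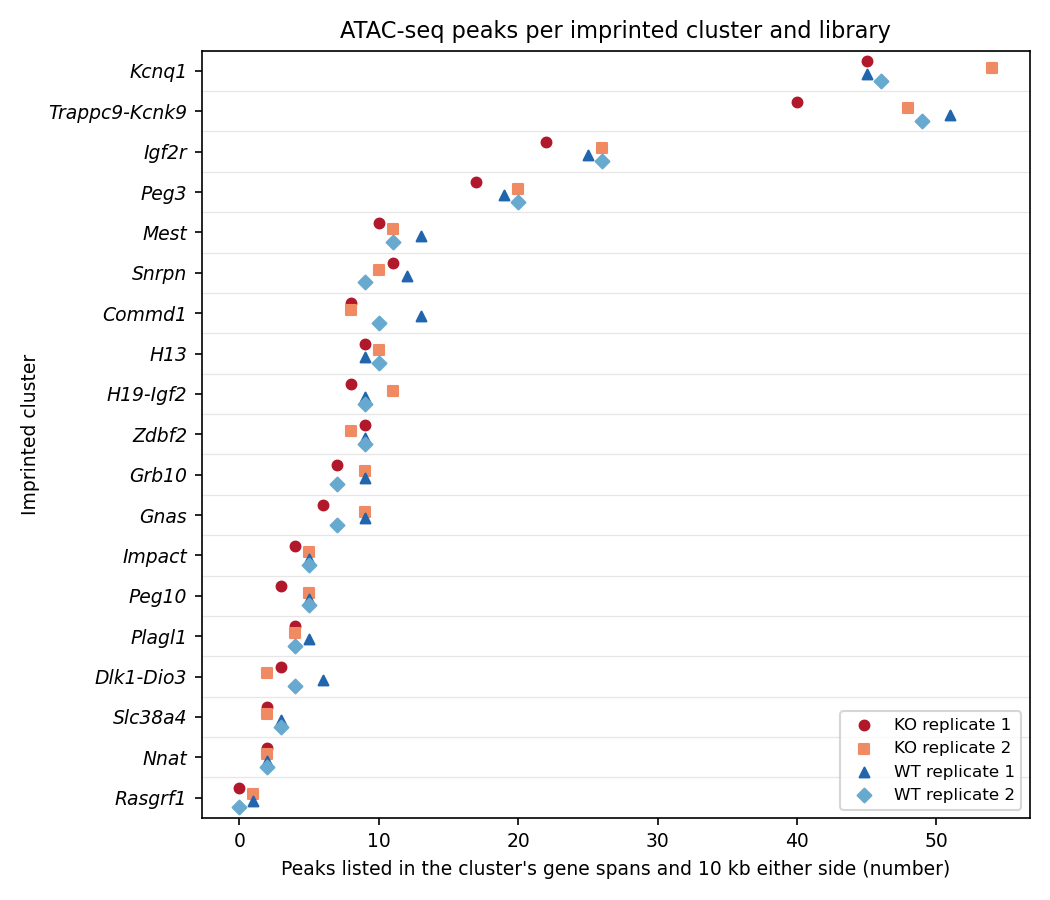
Number of listed peaks (x axis) in each of the 19 imprinted clusters (y axis), with 1 mark per library: red circles KO1, orange squares KO2, dark blue triangles WT1, light blue diamonds WT2. The 4 marks of a cluster lie close together in most rows, and KO2 with 54 peaks lies apart in the Kcnq1 row.

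Regions were unevenly spread over the clusters. The clusters' windows covered 3559 kb in all, with 7.92 regions per 100 kb. The H19-Igf2 cluster was densest, at 18.8 per 100 kb, followed by H13 at 16.9 and Kcnq1 at 14.0. The Dlk1-Dio3 cluster (2.63), the Snrpn cluster (1.82) and Rasgrf1 (1.45) were sparsest. These clusters differ in how much of their window is gene body, so the densities describe the windows only.

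At most of the gene starts every library had a peak. The region nearest a RefSeq start or, where the promoter table had none, a gene end was taken within 1000 bp, and for 29 of the 39 genes it was in all 4 lists at 1 start or end at least. At Meg3 the nearest was its WT-pattern region, at Snrpn, Dlk1 and Slc38a4 it was a region of 1 list, with a region of all 4 lists also 443 bp from that Snrpn start, and Rtl1, Rian, Mirg, Dio3, Nnat and Rasgrf1 had none. Of the 46 RefSeq starts, 26 (56.5%) had a region of all 4 lists nearest, beside 49.7% of all 32851 starts in the table. The KO pattern was at 0 of 46 (beside 0.192%) and the WT pattern at 1 of 46, the Meg3 start (beside 0.511%).

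Most genes with a control region methylated in the egg had a region of every list within 1000 bp of a start or gene end. By RefSeq start the share was lower. Of the starts of these genes, 7 of 16 (43.8%) had a region of every list nearest, and 7 of 16 had none. The share was 49.7% over all starts in the table. It was 70.4% (19 of 27) at imprinted genes not classed by a germline control region. In the first class the starts with none were that of Nnat and some starts of Mest, Snrpn and Slc38a4, genes with several starts. Mest starts that share a region were counted separately, and Peg10, Sgce, Impact and Nespas, with no RefSeq start, were left out. The shares therefore describe the listed starts and do not compare access between the classes. At Kcnq1ot1, whose transcript silences its neighbours on the father's copy, the peak over the start was 1105 bp wide in KO1, 618 in KO2, 782 in WT1 and 747 in WT2. KO1 was widest and KO2 narrowest there, so the genotypes overlapped. At Airn, the antisense transcript that silences Igf2r, the widths were 802 and 687 bp in KO against 826 and 802 bp in WT. At Plagl1, a zinc finger growth regulator, they were 809 and 713 against 801 and 824 bp. Peg3, a zinc finger gene, and Usp29 start back to back under the same peak, which measured 389, 409, 424 and 410 bp in KO1, KO2, WT1 and WT2. At the Mest start shown above, which serves a gene of the hydrolase family, they were 488, 558, 582 and 540 bp. None of the fits below called a difference at these starts.

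At several shared or nested starts KO1 differed from the other libraries, KO2 included. Peg10, a retrotransposon-derived gene, and Sgce, the gene for epsilon-sarcoglycan, face each other over a region in which the widest peak measured 1523 bp in KO1, 569 in KO2, 828 in WT1 and 810 in WT2. KO1 had 1 peak there and the other lists 2 each. At the Commd1 start inside the span of Zrsr1, an imprinted retrogene in a Commd1 intron, the widths were 1271, 497, 668 and 638 bp, again with 1 peak in KO1 and 2 in the others. At the Gnas start at position 174330006, which serves the stimulatory G protein subunit, they were 1237, 809, 842 and 805 bp. KO1 was the narrowest library at Zdbf2, a zinc finger gene, with 447 bp against 874, 956 and 871 bp, and at Grb10, with 554 bp against 796, 836 and 869 bp.

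By the mean over libraries the widest start peaks lay at Ube3a and Igf2r, whose starts are not germline control regions. Ube3a, a ubiquitin ligase gene, had peaks of 1395 and 1282 bp in KO and 1291 and 1356 bp in WT. Igf2r, the receptor that clears Igf2, had 1352 and 1306 bp against 1287 and 1286 bp. Of the 4 starts of Igf2, the fetal growth factor, the third held 931 and 1036 against 1079 and 1033 bp. Copg2, a coat protein gene beside Mest, had 938 and 841 against 925 and 914 bp, and Trappc9 had 922 and 700 against 878 and 919 bp at its high end. Phlda2 differed without overlap, at 832 and 712 bp in KO against 1109 and 924 bp in WT, with a log2 difference of -0.37 (SE 0.13) and a limma adjusted p of 0.948. The low end of Impact, a translation regulator gene, had 905 and 902 bp in KO against 978 and 890 bp in WT 682 bp away.

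**Figure D2:**
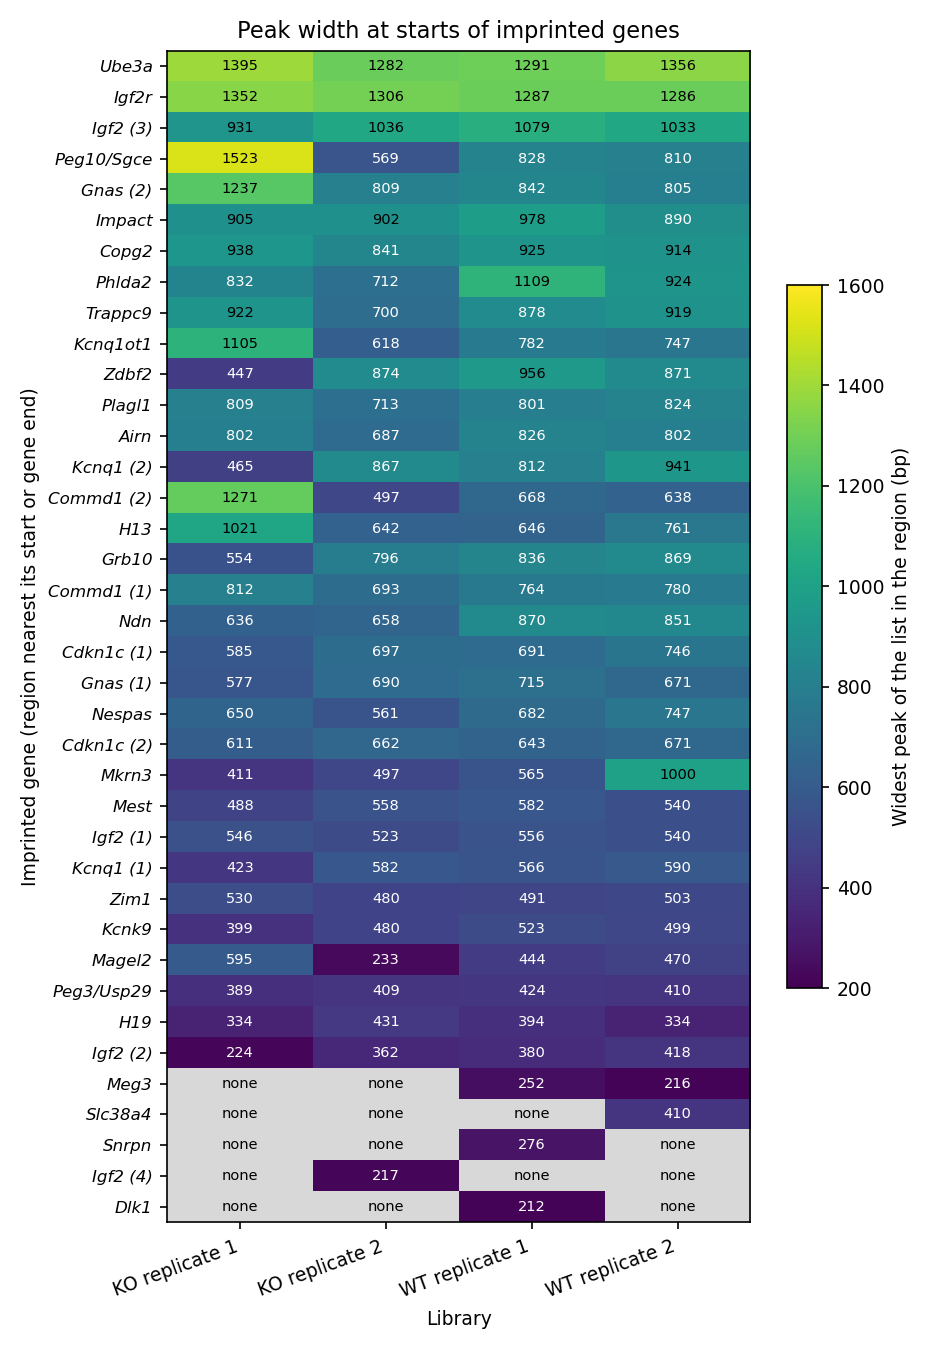
Width in bp (colour, and the number in each cell) of the widest peak of each library (columns) in the region nearest a start or gene end of an imprinted gene (rows, ordered by mean width; a number in brackets counts starts of 1 gene). Grey cells marked none have no peak; the Meg3 row has widths of 252 and 216 bp in the WT libraries and none in the KO libraries, while 33 rows have a width in all 4 libraries.

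At H19, a noncoding RNA whose control region lies upstream of its start and binds CTCF on the mother's copy, 3 regions were each in all 4 lists. The one over the high end of the gene measured 334 and 431 bp in KO and 394 and 334 bp in WT. The next, at chr7:142580125-142580892, measured 733 and 735 bp against 705 and 747 bp. The outermost, at chr7:142581685-142582075, measured 205 and 313 bp against 382 and 316 bp. Only in the outermost were both WT peaks wider than both KO peaks, with KO1 the narrowest and KO2 within 3 bp of WT2.

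The width fit covered all 75395 regions of the series called in all 4 lists, with limma on quantile-normalised log2 width and Benjamini-Hochberg adjustment over all of them. It called 0 of the 185 imprinted regions at an adjusted p under 0.05, beside 0% of all regions, and the smallest adjusted p among the imprinted regions was 0.716. Unadjusted p-values under 0.05 were found at 9 of 185, which is 4.86%, beside 4.86% over the series. Both KO peaks were wider than both WT peaks at 15 regions (8.11%, beside 7.28%), and both WT peaks were wider at 43 (23.2%, beside 27%). The log2 differences ran from -1.37 to 0.78 with a median of 0.02, against a median of 0.01 over the series. The lowest, chosen after its values were seen, was a region inside Kcnq1 at chr7:143119232-143120755 with 236 and 401 bp in KO against 1329 and 579 bp in WT, where WT1 alone was broad.

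The 5 imprinted regions with the smallest unadjusted p had non-overlapping groups, 3 with wider WT peaks and 2 with wider KO peaks. In Trappc9, the region at chr15:72665214-72665758 measured 343 and 321 bp in KO against 505 and 545 bp in WT, a log2 difference of -0.59 (SE 0.12, limma adjusted p = 0.716). This region lies beside the WT-pattern region that starts at 72664639. Another Trappc9 region, at chr15:72986441-72986818, went the other way with 315 and 378 bp against 264 and 205 bp (0.71, SE 0.17, limma adjusted p = 0.853). In H13 the region at chr2:152706253-152706681 was wider in KO, with 410 and 401 bp against 294 and 226 bp (0.78, SE 0.16, limma adjusted p = 0.720).

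The other pair lay in the Snrpn cluster, a chromosome 7 domain whose paternally expressed genes include Ndn, Magel2 and Mkrn3. The region 443 bp inside the Snrpn start, at chr7:60004017-60004756, measured 292 bp in KO1, 478 in KO2, 696 in WT1 and 738 in WT2. Both KO peaks were the narrower ones, with a log2 difference of -0.82 (SE 0.24, limma adjusted p = 0.948). WT1 alone held a further peak of 276 bp over the Snrpn start itself. At the start of Ndn, the necdin gene, chr7:62348043-62348942, widths were 636 and 658 bp in KO against 870 and 851 bp in WT, a log2 difference of -0.37 (SE 0.12, limma adjusted p = 0.948). At Mkrn3, a ring finger protein gene, the widest peaks had the same order, with 411 and 497 bp against 565 and 1000 bp (-0.65, SE 0.31, limma adjusted p = 0.948), but the peaks of the region summed to 718 and 946 bp against 867 and 1000 bp, which overlap. At Magel2, a gene of the MAGE family, 595 and 233 bp stood against 444 and 470 bp, with KO1 widest and KO2 narrowest. Leaving out KO1 moved the Snrpn difference to -0.47 and leaving out KO2 moved it to -1.19, and no fit that left out a library called either region.

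**Figure D3:**
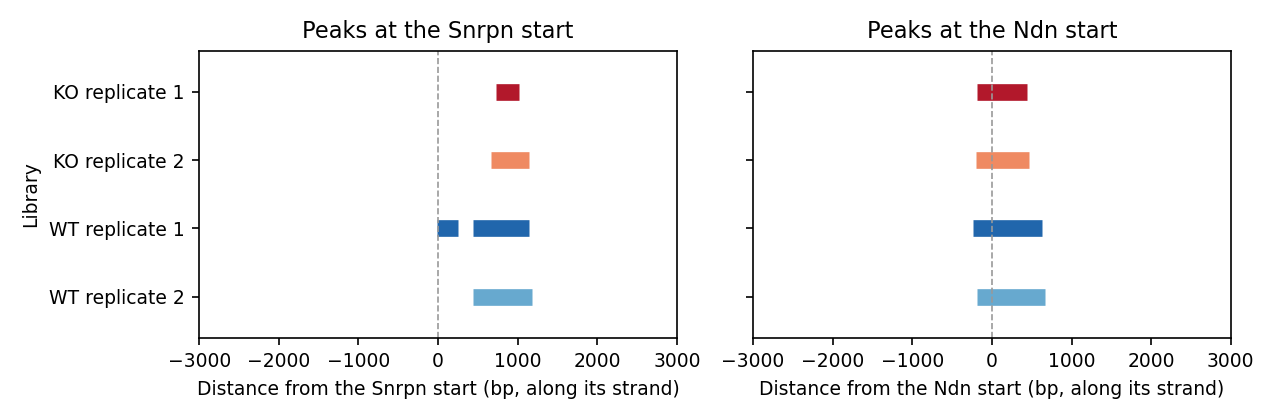
Listed peaks of each library (rows) as bars from their first to last base, against distance in bp from the start of Snrpn (left) and of Ndn (right) along the gene's strand, with the start as a dashed line. The KO bars at Snrpn measure 292 and 478 bp and the WT bars 696 and 738 bp, with the 276 bp bar of WT1 at the start; at Ndn the downstream edge is nearer the start in both KO libraries.

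At Ndn the listed peak began at -191 and -195 bp of the start in KO1 and KO2, and at -234 and -185 bp in WT1 and WT2. It ended 444 and 462 bp after the start in KO and 635 and 665 bp after it in WT. The groups overlapped at the upstream edge and did not overlap at the downstream edge. At Snrpn the upstream edge of the region stood 729 and 661 bp inside the gene in KO against 443 and 445 bp in WT, while the far edges, at 1020 and 1138 against 1138 and 1182 bp, met at KO2 and WT1.

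A gene-level value, the listed base pairs of peak in a span with its 10 kb flanks, also takes in regions missing from some lists. It was tested with limma on log2(base pairs + 200), centred on each library's median, over 32796 genes with a peak in at least 2 libraries. Of the imprinted genes 37 entered, since Rtl1 and Dio3 had no peak in any library. The fit called 0 of 37 at an adjusted p under 0.05, beside 0% of all genes, with 3 at an unadjusted p under 0.05 (8.11%, beside 7.39%). The median log2 difference was -0.04 against 0.02 over all genes, with 21 genes below 0 and 16 above. Listed base pairs were higher in both WT libraries at 15 genes (40.5%, beside 33.8%) and in both KO libraries at 1, H13 (2.70%, beside 6.46%). On this scale a fold change of genes with few base pairs is understated.

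The 5 genes with the smallest p in this fit were Slc38a4, Meg3, Snrpn, Ndn and H13. Slc38a4 held 870 and 864 bp in KO against 1172 and 1366 bp in WT, a log2 difference of -0.38 (SE 0.10, limma adjusted p = 0.559). Each WT library had 1 peak there that no other list held, of 246 bp in WT1 and, 566 bp from the start, of 410 bp in WT2, and with only peaks at or above the median width the difference was 0.01. Snrpn held 1050 and 1182 bp against 1720 and 1417 bp (-0.34, SE 0.12, limma adjusted p = 0.657). Ndn, with its 1 region, had a difference of -0.24 (SE 0.09, limma adjusted p = 0.705). H13 had 5622 and 5140 bp against 4800 and 5134 bp (0.19, SE 0.08, limma adjusted p = 0.727), where KO2 and WT2 were 6 bp apart.

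**Figure D4:**
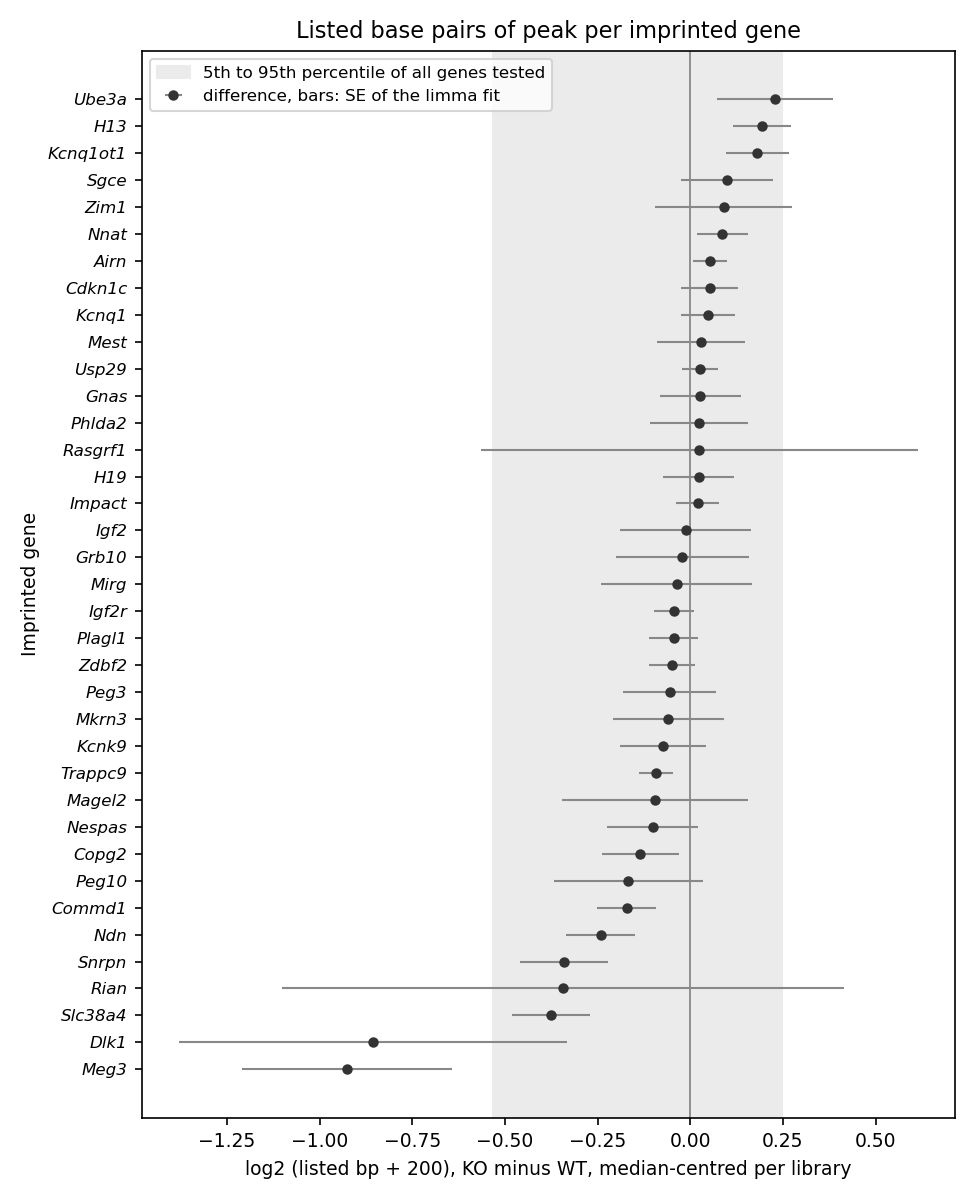
Difference in log2(listed base pairs + 200), KO minus WT, for the 37 imprinted genes with a peak in at least 2 libraries (points; bars are the SE of the limma fit), over the grey band from the 5th to the 95th percentile of all 32796 genes tested. Meg3 at -0.93 and Dlk1 at -0.86 lie left of the band; every other gene lies within it, and none was called.

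The Dlk1-Dio3 cluster was the least shared of the clusters with more than 2 regions: 1 of its 6 regions was in all 4 lists (16.7%, beside 66.7% over the series). Its maternally expressed noncoding RNAs are Meg3, Rian and Mirg, and its paternally expressed genes are Dlk1, a Notch-like membrane protein gene, Rtl1, a retrotransposon-like gene, and Dio3, a deiodinase gene. At Meg3 the listed base pairs were 44 and 0 in KO against 275 and 216 in WT, a log2 difference of -0.93 (SE 0.28, limma adjusted p = 0.598). The WT1 peak ran from -196 to 55 bp of the start and the WT2 peak from -218 to -3 bp, so both overlapped the promoter printed above, and neither KO list had a peak there. The WT peaks were among the narrower of their lists, at percentiles 11.7 and 5.32 of width. The 44 bp in KO1 belong to a 234 bp peak that crosses the edge of the 10 kb flank, which WT1 shared with 226 bp.

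Around Meg3 libraries of the same genotype also differed from each other. In the interval upstream, where the control region methylated in sperm is known to lie, WT1 held a peak from -12929 to -12511 bp of the Meg3 start and KO2 held 2 peaks of 201 bp, from -13435 to -13235 bp and from -12738 to -12538 bp, while KO1 and WT2 held none; these lie outside the 10 kb flank. Rian, which hosts small nucleolar RNAs, held 1 region of 659 bp in KO1, 397 in WT1 and 320 in WT2, missing from KO2. Beside Mirg, which hosts microRNAs, the region in all 4 lists measured 280 and 429 bp in KO against 360 and 436 bp in WT. Dlk1 held 0 and 281 bp in KO against 543 and 276 bp in WT, and its peak of 212 bp near the start was in WT1 alone. Genotypes overlapped at Dlk1, Rian and Mirg.

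**Figure D5:**
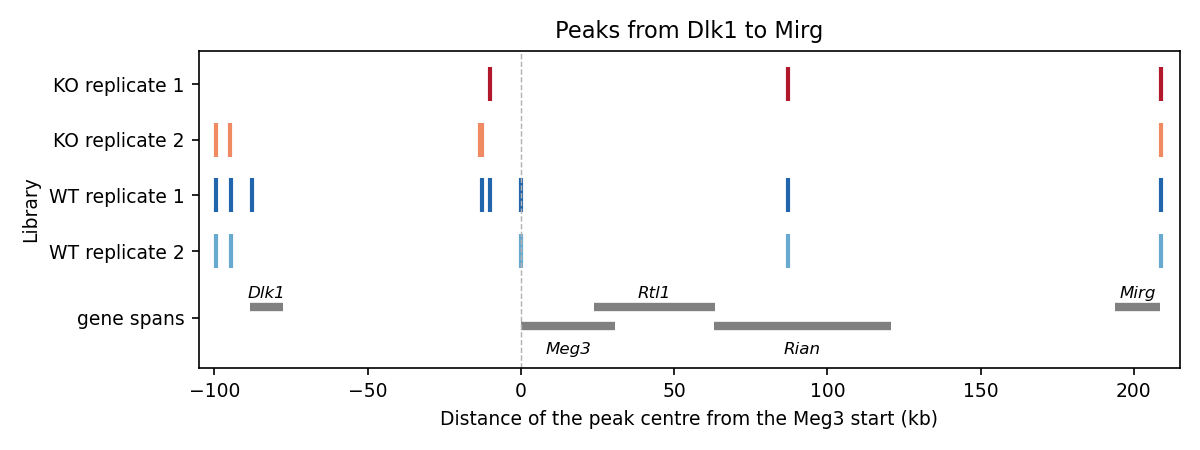
Centres of listed peaks (marks of fixed size) in each library (rows) from Dlk1 to Mirg, against distance in kb from the Meg3 start (dashed line), with gene spans as grey bars. At the dashed line WT1 and WT2 have a mark and KO1 and KO2 have none; the KO2 mark near -13 kb stands for 2 neighbouring peaks.

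Of the 3 widest imprinted regions called in all 4 lists, the one in Plagl1 varied most between libraries. The widest, inside Peg3 at chr7:6727390-6729123 and 1296 bp from its start, measured 1688 and 1624 bp in KO and 1619 and 1624 bp in WT. A region inside Impact, at chr18:12972957-12974563, measured 1571 and 1572 bp against 1584 and 1563 bp. The third, inside Plagl1 at chr10:13118148-13119722, measured 1251 and 1321 bp against 1575 and 1511 bp, the only one of the 3 in which the groups did not overlap (log2 difference -0.23, SE 0.14, limma adjusted p = 0.948).

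Nespas, Nnat and Impact were also taken here as genes with a control region methylated in the egg. This class was set from background knowledge and may not be complete. The region at the high end of Nespas, the antisense transcript of the Gnas cluster, measured 650 and 561 bp in KO against 682 and 747 bp in WT, without overlap (log2 difference -0.20, SE 0.10, limma adjusted p = 0.948). Nnat had no region within 1000 bp of its start and a region 1060 bp away, of 422 and 470 bp against 475 and 472 bp. Rasgrf1 held 201 bp in KO2 and 235 bp in WT1, at different places, and nothing in KO1 or WT2. Cdkn1c, a cell cycle inhibitor gene, had 611 and 662 bp against 643 and 671 bp at its high end, and Zim1, a zinc finger gene beside Peg3, had 530 and 480 bp against 491 and 503 bp. Kcnk9 had 399 and 480 bp at 700 bp from its high end in KO against 523 and 499 bp in WT.

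Beyond the 39 genes, a list of 43 other imprinted genes or neighbours of the same clusters was counted in the same way. Of these, 40 entered the base pair fit, 0 were called and 4 had an unadjusted p under 0.05 (beside 7.39% of all genes), with a median log2 difference of 0.03. They held 285 merged regions, 38 of them shared with those above, with 4 of the KO pattern (1.40%, beside 1.12%) and 5 of the WT pattern (1.75%, beside 3.04%). The 4 genes with the smallest p, named after their values were seen, were all lower in both KO libraries, as were 33.8% of all genes tested. Snhg14, the long transcript across the Snrpn domain, held 1898 and 1801 bp against 2688 and 2606 bp (limma adjusted p = 0.544). Its span contains that of Snrpn, so it counts the Snrpn peaks again. Snurf, which shares the Snrpn start and its region, held 292 and 478 bp against 972 and 738 bp. Atp10a held 2477 and 2872 against 3553 and 4201 bp, and Begain held 1157 and 1924 against 3289 and 2660 bp. Ranked by the lower of a region's width percentiles in its lists, the first pattern regions were a KO-pattern region at Ddc, which encodes dopa decarboxylase (571 and 485 bp), a KO-pattern region at Ppp1r9a (319 and 297 bp), a WT-pattern region at Cobl (250 and 258 bp) and a KO-pattern region at Inpp5f (291 and 224 bp).

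Of 16 genes for factors that set or keep imprints, 15 entered the fit, 0 were called and 1, Zfp57, had an unadjusted p under 0.05, with a median log2 difference of 0.02. Their 92 merged regions included 1 of the KO pattern (1.09%, beside 1.12%) and 4 of the WT pattern (4.35%, beside 3.04%). Zfp57 held 2234 and 2286 bp in KO against 2790 and 2759 bp in WT (log2 difference -0.19, SE 0.06, limma adjusted p = 0.605), and 2 of its 6 regions were of the WT pattern, the wider by rank measuring 212 and 221 bp. Arid4a and Smchd1 held 1 WT-pattern region each, of 203 and 263 bp and of 269 and 201 bp. Dnmt3a held a KO-pattern region of 387 and 565 bp at chr12:3825600-3826164, and the peaks counted at Dnmt3a were 17 in KO1, 23 in KO2, 22 in WT1 and 20 in WT2.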

How the data were processed

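Per the labels' protocols, nuclei of sorted lung endothelial cells were tagmented and the DNA was amplified. The mm10 build is named in the submitters' processing notes, with Picard, Bowtie2 and cutadapt; how peaks were called and filtered, and at what depth, is not given in the sources used here. Each list the authors deposited holds position, width in bp and strand for 1 library, with no score or count, per the file headers. No listed peak was under 201 bp wide.

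Peaks of the 19 autosomes, X and Y were joined into merged regions at any overlap. Gene spans came from RefSeq (GRCm38.p6), and all 39 symbols matched, Nespas as Gnasas1. The table gives no exons or strand. Widths (the widest peak of a list in a region) and base pairs were tested with limma 3.58.1 in R 4.3.3 (trend) on genotype alone, with Benjamini-Hochberg adjustment over the whole table. Library values were compared by exact permutation. On simulated data the width fit over 75395 regions recovered 3, 53 and 83 of 100 planted log2 shifts of 1, 2 and 4, with 12 false calls. Width differences in the series ran from -2.16 to 1.84, so a shift of 4 lies outside them and 2 near their limits. With 3 of 100 shifts of 1 recovered, the absence of called widths says little about changes of that size. The base pair fit over 32796 genes recovered 41 and 80 of 100 shifts of 1 and 2, with 6 false calls.

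Members, lists and tests were chosen with earlier results of these data known. Named were all pattern regions, each start region, the 3 widest regions, the 5 smallest p-values of each fit and at most 4 genes of each other list; the 4 neighbours with an unadjusted p under 0.05, the Kcnq1 region, the H19 and Nnat regions and the Meg3 promoter were added after their values were seen. Alternatives covered overlap, flanks, list length, width, scaling, pseudocount, filter, replicate number and left-out libraries.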

Additional observations from a re-analysis of the deposited data

How the results depend on the processing

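The counts of called imprinted regions (0 by width, under 9 settings) and genes (0 by base pairs, under 11 of 12 settings) were the same except when genes with few peaks were kept in the base pair fit. That version called 3 imprinted genes, 2 of them (Rtl1 and Dio3) with no peak in any library, and 17433 genes in all. Genes without peaks have equal base pairs in every library, so the centring gave all of them the same difference and spread. Meg3 was the third imprinted gene called, with -0.90 and a limma adjusted p of 0.0055, against 0.598 in the main fit with the filter. At an unadjusted p under 0.05, from 3 to 42 imprinted regions and from 1 to 8 genes were found. The KO-pattern count of 4 was 2 with only peaks at or above the median width, and 6 to 16 when each library was left out, since 3 lists then set the pattern; the WT-pattern count of 6 was 11 to 28. Beside them the series' KO share ran from 1.89% to 5.83% and its WT share from 4.99% to 11.1%. The difference in peaks of -15.5 was 0.739 per 100000 peaks, 2 without KO1 and -33 without KO2. Slc38a4 (-0.38) was 0.013 with only peaks at or above the median width; the cause was not tested. The 40 values of named region widths under other settings kept direction. The named regions, like the named genes, were picked by smallest p and had groups that did not overlap. A kept direction was therefore largely fixed by that choice and is no support. No region of the series was called under any width setting, so the named widths could not change their side of the threshold. Of 53 values of named genes, 51 kept direction and side of the threshold, where only the version without a filter called any gene. Meg3 had too few peaks to be tested without flanks or with only peaks at or above the median width.

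Libraries with the same replicate number did not deviate together (correlation -0.09 for width, -0.08 for base pairs). This single contrast cannot show whether they shared a litter or day, which the labels do not give. With a replicate block the difference in peaks stayed at -15.5 (exact permutation p = 1), 0 regions and 0 genes were called, and 7 regions and 1 gene had an unadjusted p under 0.05.

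The lists carry no depth, score or threshold, which limits what presence or absence can show at the 10 regions of the KO and WT patterns, all narrower than the median of their lists, and 2 libraries a genotype limit every test.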

Other observations

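KO1 held the broadest peak at several imprinted starts and the narrowest at others, such as Zdbf2 (447 bp) and Grb10 (554 bp). Only the broad side was counted, by a measure chosen after the values were seen. The widest peak of KO1 was at least 1.3 times that of each other library at 5 of 33 start regions (15.2%). These were Commd1, Peg10 with Sgce, Gnas, Kcnq1ot1 and H13. Over the series KO1 led by this ratio at 654 of 11135 regions that hold a start (5.87%) and at 5.19% of all regions in 4 lists. The 33 imprinted regions also take in gene ends and regions within 1000 bp of a start, so these sets are not alike. With the peaks of a list summed within a region, the counts were 3 of 33 (9.09%) and 2.73%, and Gnas, Kcnq1ot1 and H13 stayed above that ratio. By the same ratio of widest peaks KO2 and WT1 led at 0 imprinted starts and WT2 at 1, Mkrn3.

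The Mest region beside the start shown, at chr6:30736307-30737426, had the same order, with 1120 bp in KO1, 543 in KO2, 587 in WT1 and 611 in WT2. No test was made of these values, and KO1 is also the shortest list with the largest median width.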
